A study of Mus musculus with 39 samples.

Results

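The clustered histone genes were followed in epididymal adipose tissue, the visceral fat pad beside the epididymis of male mice. Members were the genes whose name on the array began with Hist1h, Hist2h, Hist3h or Hist4h, each represented by its brightest probe, which gave 42 of the 29411 gene names on the array (47 of 40628 probes). By histone class they comprised 6 H1, 14 H2A, 9 H2B, 7 H3 and 6 H4 genes. By cluster, 31 lay in Hist1 on chromosome 13, 7 in Hist2 on chromosome 3, 3 in Hist3 on chromosome 11 and 1 in Hist4 on chromosome 6.

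Histone proteins package DNA: H2A, H2B, H3 and H4 form the core of the nucleosome, and H1 binds the linker DNA between nucleosomes. Most clustered histone genes are transcribed during S phase, when new DNA has to be packaged, and their mRNAs end in a conserved stem-loop rather than a poly(A) tail. Replacement histones, which are encoded outside the clusters, are made throughout the cell cycle from polyadenylated mRNAs, and some clustered genes also give polyadenylated transcripts.

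The series held 39 one-colour Agilent arrays of C57BL/6J mice, which were weaned at 3 to 4 weeks of age. LFC mice ate a low fat control diet with 10% of calories from fat (11 arrays, at days 1, 6, 10 and 14 and weeks 0, 3, 6, 9, 12, 15 and 18). HFC mice ate a diet with 60% of calories from fat and increased sucrose (10 arrays, at the same times except day 1). HF5, HF20 and HF75 mice ate the HFC diet and received KAL-1, a botanical formulation, at 5, 20 and 75 µg respectively (6 arrays each, at weeks 3 to 18). Each diet was measured on 1 array per time point, so time points served as the replicates. By the study's methods weeks were counted from day 14, so that day 14 and week 0 name the same time on the diet. They were measured on separate arrays in separate scan periods and are treated here as separate time points. Whether an array held RNA of 1 animal or of several was not given in the sources used here. Levels are log2 of the processed signal minus the 75th percentile of that array, so that 0 is the brightness below which 75% of the probes of that array lay. The labelled tissue was checked against its markers: no adipocyte marker was at background throughout any of the 5 diet groups, and their summed level lay between 3.81 and 7.16 on all 39 arrays. Markers of neighbouring tissue varied widely, with the summed level of 6 epididymis markers running from −7.68 to 4.76 and that of 6 testis germ cell markers from −5.50 to 4.03. In a whole fat pad, fewer cells of a type and less RNA per cell cannot be told apart.

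3 arrays stood apart before any histone gene was considered. On LFC week 3, 97.1% of spots were well above background and 16431 spots carried an outlier flag, and on HFC week 12 the values were 94.5% and 10531. The other 37 arrays had 53.7% to 79.6% of spots well above background and 21 to 387 outlier spots. Among those, HF5 week 9 was the dimmest, with a 75th percentile of 119 intensity units and the lowest share of spots above background (53.7%). Results whose call or direction turned on these arrays are given with and without them.

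The probes of the H2A genes that carry the main result are shown first, because near-identical coding sequence limits which gene a signal can be assigned to. Capitals mark the bases at which the aligned probes of Hist1h2ai, Hist1h2ak, Hist1h2af and Hist2h2aa1 differ from Hist1h2ai (or Hist1h2ai from Hist1h2ak), and bases outside the aligned stretch.
Hist1h2ai: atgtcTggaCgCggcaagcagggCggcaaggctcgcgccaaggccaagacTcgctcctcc
Hist1h2ak: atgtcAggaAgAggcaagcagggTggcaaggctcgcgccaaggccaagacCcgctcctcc
Hist1h2af, second probe: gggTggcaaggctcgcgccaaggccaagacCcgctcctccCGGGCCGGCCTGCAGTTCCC
Hist2h2aa1: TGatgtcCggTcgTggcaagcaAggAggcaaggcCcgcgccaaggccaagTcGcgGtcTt
The probes of Hist1h2ai and Hist1h2ak both began at the start codon and differed at 5 of 60 bases. The second probe of Hist1h2af overlapped that of Hist1h2ai over 40 bases with 2 differences, and that of Hist2h2aa1 over 58 bases with 10 differences.

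The probes of Hist1h2an and of Hist1h2ah lay at the other end of the coding sequence, with the stop codon in capitals.
Hist1h2an: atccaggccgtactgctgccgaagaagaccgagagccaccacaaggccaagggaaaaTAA
Hist1h2ah: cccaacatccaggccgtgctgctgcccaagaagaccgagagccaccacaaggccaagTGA
Across the members, 16 of the 42 probes shared a run of 20 or more bases with the probe of another member. The longest shared runs were 52 bases between Hist1h2bk and Hist1h2bm, 50 between Hist1h4d and Hist1h4f, and 46 between Hist1h2ah and Hist1h2af. The file listed 1 transcript for 25 of the probes and several for 17, with 9 for Hist1h4d and for Hist1h2bk. A value therefore belongs to a probe and to the transcripts it can bind, and single genes of these families could not always be resolved.

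In 4 probes the histone stem-loop itself was present in full, shown here in capitals within the last 30 bases of each probe.
Hist1h3a: gaattaaccaaaGGCTCTTTTCAGAGCCac
Hist1h3h: gtgtttttcaaaGGCTCTTTTCAGAGCCac
Hist1h2ag: atcgccaacaaaGGCTCTTTTCAGAGCCac
Hist1h3g: aaccactttaaaGGCTCTTCTTAGAGCCac

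Promoters of 36 of the 42 members were found in the RefSeq table (build GRCm38.p6, 250 bases before to 50 after the start, both strands searched). The CCAAT box (the letters CCAAT) occurred in 33 of the 36 (91.7%) against 37.9% of 27025 promoters of all genes. The TATA box, searched as TATAAA, occurred in 63.9% of the members and 14.2% of all promoters. The octamer ATTTGCAT, which is bound by POU domain factors, occurred in 30.6% against 1.75%, and within the members only in H2A genes (7 of 14) and H2B genes (4 of 6). The stretches of Hist1h2aa and Hist1h2ba overlap, as do those of Hist1h2ah and Hist1h2bk. A motif there can count for both genes, so the H2A and H2B counts are not independent. None of these motifs contains another. The CCAAT box was present in 2 of 5 H4 promoters and in all 6 H1, all 14 H2A, all 6 H2B and all 5 H3 promoters. Printed next are promoter stretches of the 2 members called between early and late arrays over LFC and HFC, calls that not every alternative kept. CCAAT on either strand is in capitals. The stretches are chr13:21716282-21716411 (plus strand) and chr13:21753913-21754042 (minus strand) of GRCm38.p6.
Hist1h2ai: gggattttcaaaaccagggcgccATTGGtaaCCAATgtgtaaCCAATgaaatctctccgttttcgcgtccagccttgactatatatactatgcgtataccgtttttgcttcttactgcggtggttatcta
Hist1h2ak: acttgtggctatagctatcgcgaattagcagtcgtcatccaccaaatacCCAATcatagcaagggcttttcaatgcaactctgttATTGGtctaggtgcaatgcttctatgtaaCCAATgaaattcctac

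Most clustered histone genes gave signal in this tissue. Of the 42 members, 37 (88.1%) were well above background on at least 20 of the 39 arrays, against 69.0% of all probes. They were 5 of 6 H1, 11 of 14 H2A, 8 of 9 H2B, 7 of 7 H3 and 6 of 6 H4 genes. The members that missed this mark were Hist1h1t, the testis linker histone, with 16 arrays, Hist1h2ae with 14, Hist1h2be with 12, Hist2h2ab with 11 and Hist1h2ac with 2. Hist1h2ac was not well above background on any HFC, HF5, HF20 or HF75 array. It was well above background on 2 of the 11 LFC arrays, 1 of them LFC week 3, and no fold is given for it. The 4 probes that held the stem-loop were dim, with median levels from −5.49 (Hist1h3g) to −4.22 (Hist1h3a). Whether the amplified RNA held mRNAs with a stem-loop end or only polyadenylated transcripts was not tested. A level here need therefore not be the total mRNA of a gene.

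Levels within a gene moved over a wide range between arrays, and the arrays that stood apart often set the ends of that range. Among H1 genes, Hist1h1c, the H1.2 linker histone, had a lowest, median and highest level of 1.1, 2.98 and 4.24, and Hist1h1e, H1.4, had −1.20, 1.23 and 4.47. Among H2A genes, Hist1h2ah had 3.47, 5.10 and 6.88, and Hist1h2af had 3.18, 5.03 and 6.72. Among H2B genes, Hist1h2bm had −0.73, 2.02 and 3.92, and Hist1h2bk had −2.09, 1.94 and 3.87. These H2A and H2B signals were well above background on all or all but 1 of the arrays. Among H3 genes, Hist2h3c1 had 2.74, 5.78 and 6.67, and Hist1h3d had 1.40, 5.15 and 6.27. Among H4 genes, Hist1h4f had 1.11, 2.88 and 5.14, and Hist1h4d had 0.25, 2.40 and 4.79. Both H4 genes were lowest on LFC week 3 and highest on HF5 week 9. Signals were saturated on 8 arrays for Hist2h3c1, 7 for Hist1h2ah, 4 for Hist1h2aa and 1 for Hist1h2af, so their levels on those arrays are lower limits.

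The members known as testis histones did not share 1 pattern. Hist1h1t ran from −8.27 through a median of −6.26 to 1.93, Hist1h2aa from 3.32 through 4.96 to 6.67, and Hist1h2ba, the testis H2B, from −0.58 through 0.95 to 2.54. The Hist1h2aa probe shared 44 bases with that of Hist1h2ah, and the levels of these 2 genes had a Spearman correlation of 0.988 over the 39 arrays, the highest of all 666 pairs among the 37 members. The summed level of testis germ cell markers was −5.05 on HFC week 12, the array on which Hist1h1t reached 1.93.

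**Figure D1:**
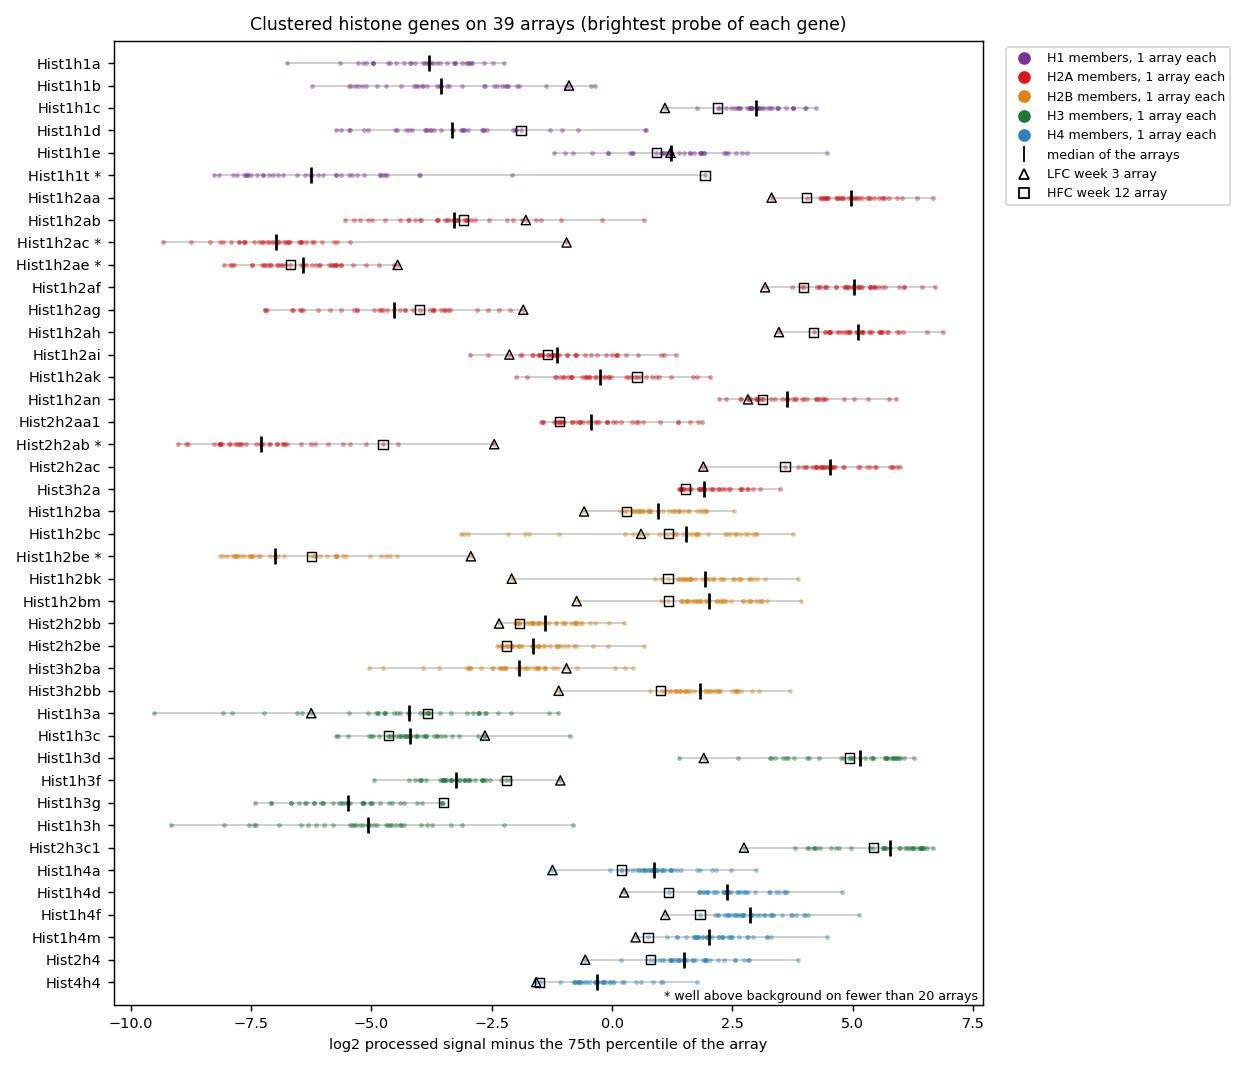
Levels of the 42 clustered histone genes, ordered by class, as log2 of the processed signal minus the 75th percentile of the array (horizontal axis), 1 point per array coloured by class, with a vertical bar at the median. LFC week 3 (triangles) and HFC week 12 (squares) are marked, and LFC week 3 often lies at an end of a gene's range, as for Hist1h2ac at −0.95, while HFC week 12 gave the highest Hist1h1t level, 1.93.

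The standard deviation of a member over the 39 arrays had a median of 0.94 (0.53 for Hist3h2a to 1.91 for Hist1h1t), against 0.92 over all probes. Among those well above background on at least 20 arrays it was 0.89 against 0.76. The class medians of this spread were 1.31 in H1, 0.94 in H2A, 0.80 in H2B, 1.01 in H3 and 0.73 in H4. H4 genes moved together most closely, with a median Spearman correlation of 0.885 over 15 pairs, against 0.590 in H2A (55 pairs), 0.428 in H1 (10 pairs), 0.419 in H2B (28 pairs), 0.185 in H3 (21 pairs) and 0.219 over all 666 pairs. The points of these correlations share arrays and scaling, and several of the probes share sequence. The lowest correlation, −0.715, was between Hist1h3d and Hist2h2be.

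The first comparison asked which histone genes differed between the early arrays (days 1 to 14 and week 0) and the late arrays (weeks 3 to 18). 2 of 39 members tested, Hist1h2ai and Hist1h2ak, both replication-dependent H2A genes, fell in late tissue over both diets without KAL-1, and no member was called higher (with array weights 7 were called lower and 3, all H3 genes, higher). Over all 30191 probes, 2.21% were called (234 higher and 433 lower late), so 2 of 39 is to be read against that share. All 12 H2A genes tested lay lower late, with a median difference of −0.76 on the log2 scale, while the median over all probes was −0.02. Of the 6 H2A genes with an unadjusted p under 0.05, only those 2 passed the adjusted threshold of 0.05 in limma.

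Hist1h2ai stood at 0.54, 1.34, 0.29, 0.10 and 0.11 on the 5 early LFC arrays and at −2.13, −0.56, −0.94, −2.96, −0.94 and −1.88 on the 6 late ones. In HFC it stood at 1.01, 1.09, −1.14 and −0.31 early and at −1.20, −0.76, −0.76, −1.34, −1.16 and −1.66 late. Every late LFC array was below every early one, whereas in HFC day 14 lay among the late values. The means were 0.48 ± 0.51 (SD, n = 5) against −1.57 ± 0.91 (SD, n = 6) in LFC, and 0.16 ± 1.08 (SD, n = 4) against −1.15 ± 0.35 (SD, n = 6) in HFC. Over both diets the difference was −1.71 (SE 0.34, limma adjusted p = 0.00984). Without day 6 the adjusted p was 0.0583 and without day 10 it was 0.0552, so the call depended on each of these time points.

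Hist1h2ak stood at 1.23, 2.03, 0.97, 0.70 and 0.91 on the early LFC arrays and at 0.34, −0.33, −2.0, −0.19 and −1.19 on 5 late ones, since its spot on LFC week 3 was an outlier and that array was dropped for it. In HFC it stood at 1.68, 1.76, −0.35 and 0.47 early and at −0.15, −0.03, −0.09, 0.52, −0.46 and −1.17 late. The LFC ranges did not overlap and the HFC ranges did. The difference over both diets was −1.49 (SE 0.36, limma adjusted p = 0.0333). This call was lost on leaving out day 1 (adjusted p = 0.0742), day 6 (0.137), day 10 (0.126), week 3 (0.0519), week 9 (0.0564), week 15 (0.0806) or week 18 (0.0933). Without LFC week 3 and HFC week 12 the differences were −1.70 for Hist1h2ai (adjusted p = 0.0488) and −1.63 for Hist1h2ak (0.0505).

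Hist1h2an, a further H2A gene, stood at 4.33, 5.75, 4.40, 4.24 and 4.83 early and at 2.83, 4.06, 3.77, 3.01, 3.80 and 2.22 late in LFC. In HFC it stood at 5.33, 5.04, 2.67 and 4.39 early and at 4.29, 4.24, 3.95, 3.12, 3.04 and 2.86 late. Its LFC ranges did not overlap either, and its difference over both diets was −1.12 (SE 0.36, adjusted p = 0.104). These 3 H2A genes were the members of which every late LFC value lay below every early one, a property of 0.894% of the 30420 probes tested in LFC. No member had this property in HFC.

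**Figure D2:**
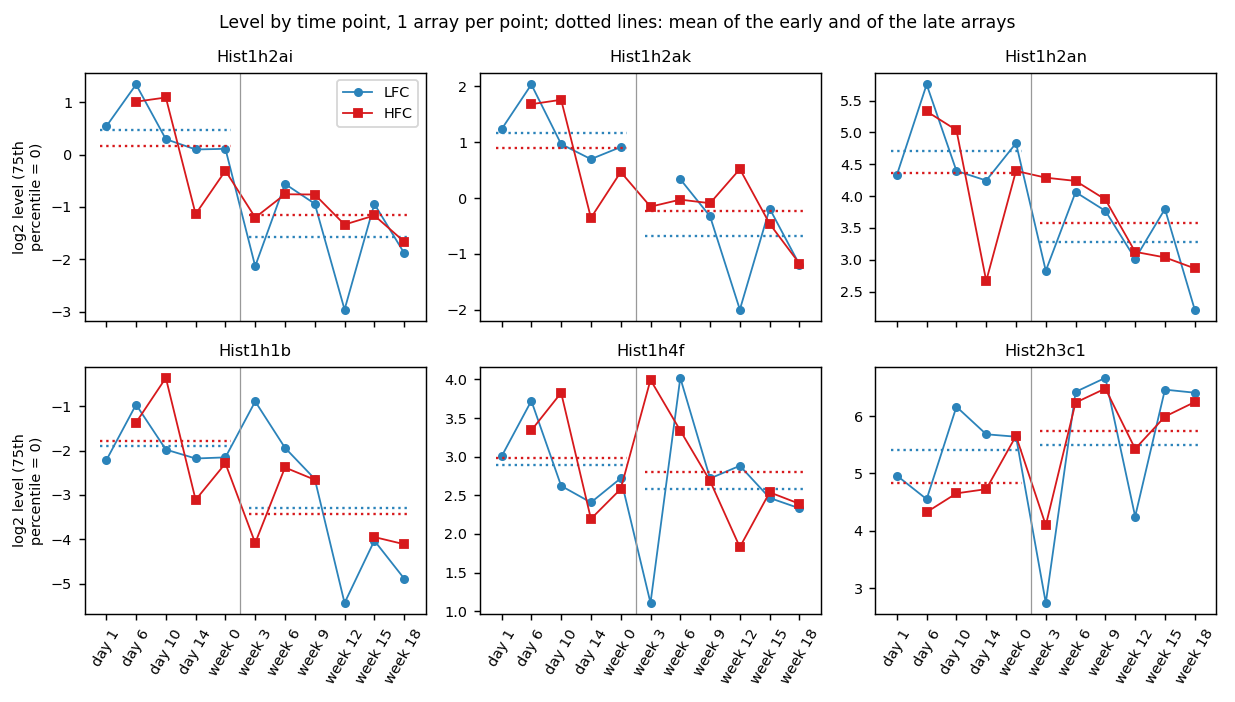
Levels of Hist1h2ai, Hist1h2ak, Hist1h2an, Hist1h1b, Hist1h4f and Hist2h3c1 (vertical axes, log2 signal relative to the 75th percentile of the array) at each sampled time point in LFC and HFC. The 3 H2A genes stand higher on the LFC arrays of days 1 to 14 and week 0 than on any later LFC array, and Hist1h4f and Hist2h3c1 dip on LFC week 3.

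The second probe of Hist1h2af, which shares most of its bases with that of Hist1h2ak, differed by −1.81 (SE 0.35, adjusted p = 0.00867), whereas the brightest probe of Hist1h2af, at the other end of the gene, differed by −0.75 (SE 0.36, adjusted p = 0.263). The second probe had 5 transcripts listed, that of Hist1h2ak among them, so its value cannot be assigned to Hist1h2af alone or counted apart from Hist1h2ak. Hist1h4d also had 2 probes that differed in size, −0.86 (SE 0.32, adjusted p = 0.158) and −0.35 (SE 0.38, adjusted p = 0.629). The other abundant H2A genes gave differences of −0.71 for Hist1h2ah (adjusted p = 0.234) and −0.65 for Hist1h2aa (0.293).

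Classes other than H2A differed among themselves in direction. 5 of 6 H1 genes lay higher late (median 0.24), 6 of 8 H2B genes lower (median −0.23), 5 of 7 H3 genes higher (median 0.48) and 6 of 6 H4 genes lower (median −0.26), and no gene of these classes passed the threshold. The H1 gene that lay lower was Hist1h1b, the H1.5 linker histone, at −1.54 (SE 0.53, adjusted p = 0.136). Hist1h1b stood at −2.22, −0.96, −1.98, −2.18 and −2.15 on the early LFC arrays and at −0.89, −1.94, −2.64, −5.43, −4.03 and −4.88 on the late ones. LFC week 6 lay among the early values, and LFC week 3 lay above all of them. Hist2h2be, an H2B gene, differed by −0.91 (SE 0.34, adjusted p = 0.164). On the other side, Hist1h3d, an H3 gene, differed by 0.79 (adjusted p = 0.472) and Hist2h3c1 by 0.48 (adjusted p = 0.589). Over all 42 members, the late mean was lower in both diets for 25, higher in both for 12 and opposite for 5.

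Without LFC week 3 and HFC week 12, all 12 H2A genes still lay lower (median −0.60), while the H4 median went from −0.26 to 0.04, with 2 of 6 lower. The H2B median was then −0.04, with 5 of 8 lower, and the H3 median 0.24. With week 0 as the sole early time point, so that early and late came from the same scan period, 10 of 11 H2A genes lay lower (median −0.60) and no member was called. Within that period 0 of 8 H2B genes lay lower (median 0.24), the H4 median was 0.07, and the H3 median was 0.05 with 3 of 7 lower. Days 1 to 14 were scanned in a period of their own, and apart from week 0 the scan period and the early time points cannot be told apart.

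**Figure D3:**
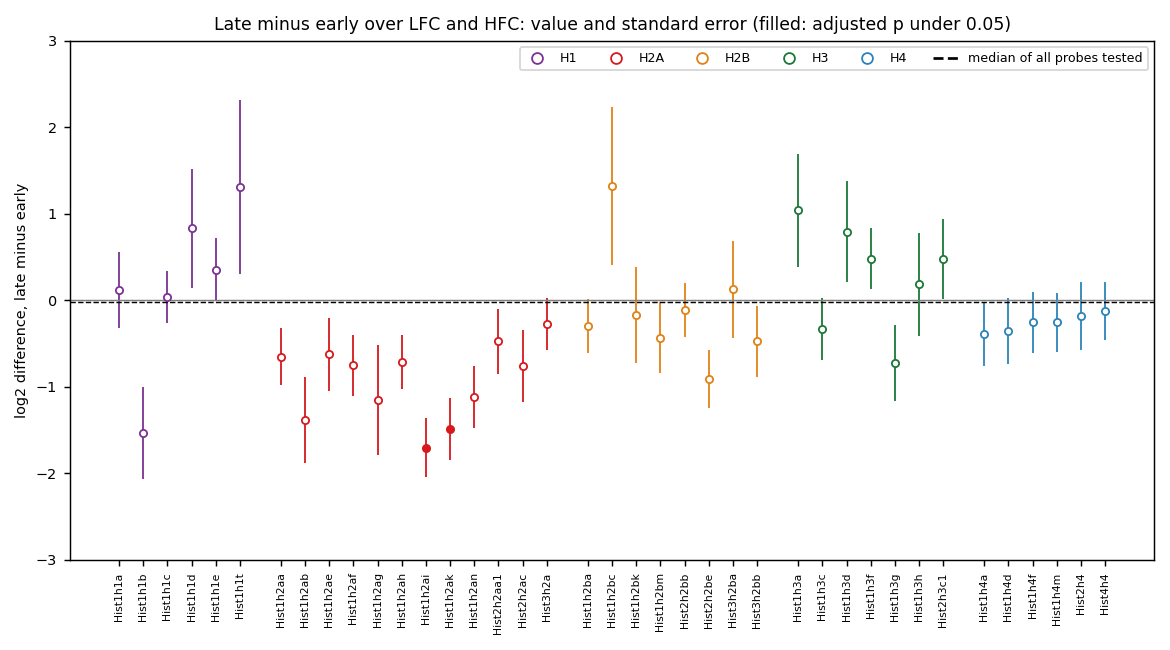
Late minus early difference (log2) of each tested clustered histone gene over LFC and HFC, grouped by class, with bars of 1 standard error. All 12 H2A genes lie below 0, and the filled points are the 2 genes, Hist1h2ai and Hist1h2ak, that passed the adjusted threshold.

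Within LFC alone 0 of 38 members passed the threshold, against 0.490% of 30420 probes, and 6 members had an unadjusted p under 0.05, all of them lower late (5.52% of all probes had such a p in either direction). The differences were −2.05 (SE 0.47, adjusted p = 0.109) for Hist1h2ai, −1.84 (SE 0.48, adjusted p = 0.240) for Hist1h2ak and −1.43 (SE 0.43, adjusted p = 0.406) for Hist1h2an. Within HFC 0 of 40 members and 0% of 30582 probes passed in limma, while 5 members had an unadjusted p under 0.05, 4 of them lower late (16.8% of all probes). Hist1h2ai differed by −1.31 (SE 0.44, adjusted p = 0.232), Hist2h2be by −0.99 (SE 0.34, adjusted p = 0.234) and Hist1h1b by −1.65 (SE 0.61, adjusted p = 0.253). The H2A genes lay lower late in 12 of 12 cases in LFC (median −0.91) and in 12 of 13 in HFC (median −0.61).

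Whether the late minus early difference itself depended on the diet was tested on the HFC minus LFC differences at the 10 shared time points. No member and 0% of 29168 probes passed, with 1 member at an unadjusted p under 0.05. That member was Hist1h3d, at 1.73 (SE 0.74, adjusted p = 0.841), followed by Hist2h2aa1 at −0.82 (SE 0.38) and Hist2h3c1 at 0.92 (SE 0.50). Hist1h3d stood at 1.40 on HFC day 14 and 1.91 on LFC week 3, and between 3.30 and 6.27 on the other LFC and HFC arrays. For Hist1h2ai the diet dependence was 0.72 (SE 0.51, adjusted p = 0.846) and for Hist1h2ak 0.69 (SE 0.65, adjusted p = 0.885), so a difference between the diets in how far these genes fell was not detectable with this number of arrays.

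Genes of DNA replication and cell division were examined beside the histones over the same early and late arrays. In limma 10 of 12 mitosis genes fell late, with a median of −2.24 and all 12 lower. Examples were Cdc2a, the mitotic kinase Cdk1, at −2.82 (SE 0.37, adjusted p = 0.0016), Ccnb1, cyclin B1, at −2.51 (SE 0.38, adjusted p = 0.0019) and Plk1, a mitotic kinase, at −2.25 (SE 0.34, adjusted p = 0.0019). Of the DNA replication genes 7 of 16 fell, with a median of −1.02 and all 16 lower, among them Tk1, thymidine kinase, at −2.40, Rrm2, a ribonucleotide reductase subunit, at −1.88 and Mcm5, a subunit of the replicative helicase, at −1.83. 4 of 14 histone chaperone genes fell, namely Asf1b at −1.84, Chaf1a at −1.78, Chaf1b at −1.23 and Hjurp, which loads centromeric histone, at −1.05. Over all probes, only 3 were called in this comparison with normexp background correction, and none within 1 scan period. Nearly all calls of these gene lists were therefore lost with normexp, and all of them within 1 scan period.

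Of 10 replacement histones 1 fell, H2afx, which is phosphorylated at DNA breaks, at −1.14 (adjusted p = 0.0403), and the list median was −0.39. Of 12 genes of histone gene transcription and mRNA end processing 1 fell, Ccne1, cyclin E1, at −1.39 (adjusted p = 0.0291). Slbp, the stem-loop binding protein, differed by −0.19 and Npat, a coactivator of histone genes, by 0.15, and neither passed. None of the 2 germ cell histones tested passed. Within HFC no gene of these lists passed, although 12 of 12 mitosis genes lay lower late (median −1.74). In LFC 7 of 12 mitosis and 2 of 16 DNA replication genes fell.

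The summed level of the mitosis list was 0.53 to 1.86 on early and −2.24 to −0.21 on late LFC arrays, which did not overlap, and −0.09 to 2.09 against −1.15 to −0.06 in HFC, which overlapped slightly. No cell type marker passed the threshold between early and late. All 4 neutrophil markers lay higher late (median 1.84), with summed levels of −1.50 to 1.78 early and 1.87 to 4.01 late in LFC, and all 4 B cell (median 1.16) and all 4 mast cell markers (median 0.88) lay higher as well. 5 of 6 epididymis markers (median −0.93) and all 3 mesothelium markers (median −0.96) lay lower. The part of cell composition in the histone results was not tested.

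Likeness was measured by Spearman correlation over the 39 arrays, a measure chosen after values had been seen. Among 27969 probes, those most like that of Hist1h2ai were of Hist1h2ak (0.944), Hist1h2af (its second probe, 0.909), Hist1h2an (0.865), Gm6091 (0.843), Cdca5 (0.839) and Cdca8 (0.838). That second Hist1h2af probe overlaps the Hist1h2ai probe over 40 bases with 2 differences, and the brightest Hist1h2af probe gave 0.65. The probes most like that of Hist1h2ak besides histone genes were Cdca5 (0.903), Ncapg (0.898), Ccnb1 (0.898), Cdca3 (0.896), Ccna2 (0.894) and Ube2c (0.892). All of these points come from the same arrays.

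The next comparison asked which clustered histone genes differed between the high fat and the control diet. None did: 0 of 38 members passed in limma over the 10 shared time points, against 0% of 29168 probes, and 0 members had an unadjusted p under 0.05 (3.05% of all probes). 23 members lay higher and 15 lower in HFC, with a median of 0.08 against 0.03 over all probes. Without LFC week 3 and HFC week 12, 26 of 37 lay lower in HFC (median −0.07), with 7 of 7 H3 genes (median −0.46) and 6 of 6 H4 genes (median −0.07) among them. The smallest p values belonged to Hist1h3f, an H3 gene, at −0.55 (SE 0.29), Hist1h1a, the H1.1 linker histone, at −0.50 (SE 0.29) and Hist1h1t at 1.63 (SE 0.99), each with an adjusted p of 0.998. At weeks 3 to 18 alone, 0 of 41 members and 0% of 31452 probes passed. Hist1h1t then differed by 2.06 (SE 1.19), Hist3h2ba by −0.83 (SE 0.55) and Hist1h2ab by 0.81 (SE 0.55), and 6 of 6 H4 genes lay higher in HFC (median 0.22). Without LFC week 3 and HFC week 12 the H4 median was 0.03 with 2 of 6 lower, and Hist1h1t differed by 0.70.

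At single time points the members' median HFC minus LFC difference varied in sign. It was −0.23 at day 6, 0.72 at day 10, −0.70 at day 14 and −0.21 at week 0. Later it was 1.75 at week 3, −0.18 at week 6, 0.05 at week 9, −0.45 at week 12, −0.09 at week 15 and 0.04 at week 18. The furthest from 0 was week 3, where LFC was the array that stood apart. On the slides that held both arrays of a time point, the medians were −0.21 at week 0, 1.75 at week 3 and 0.04 at week 18. Over all probes the median difference was −0.18 at day 6, −0.36 at day 10, −0.05 at day 14 and −0.04 at week 0. It was −0.51 at week 3, −0.14 at week 6, −0.03 at week 9, 0.32 at week 12, 0.03 at week 15 and 0.09 at week 18.

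For KAL-1, the question was whether any dose changed the histone genes of mice on the high fat diet at weeks 3 to 18. No member passed in limma at any dose (0 of 41 each, 0% of 31452 probes), nor did the mean of the 3 doses or HF75 against HF5. These comparisons share the 6 HFC arrays among themselves and with the diet comparison. With HF5 0 members had an unadjusted p under 0.05 (3.42% of all probes), with HF20 4 had (4.84%), with HF75 3 had (1.5%) and with the mean of the doses 3 had (1.75%), all of them lower than HFC.

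The members behind these counts were H1 and H3 genes at dim levels. Hist1h3g stood at −5.17, −4.63, −5.80, −3.50, −5.68 and −5.02 in HFC at weeks 3 to 18, at −5.64, −4.99, −5.04, −6.19, −5.60 and −6.68 in HF5, at −7.09, −5.49, −6.01, −6.37, −5.20 and −6.51 in HF20, and at −6.39, −5.18, −5.52, −7.43, −6.01 and −6.67 in HF75. The HFC values lay mostly above the others but overlapped with each dose. At weeks 3 to 18 it was well above background on 5 of 6 HFC, 3 HF5, 4 HF20 and 4 HF75 arrays (9 of 10 HFC arrays over all times). Differences from HFC were −0.72 (SE 0.43) in HF5, −1.14 (SE 0.43) in HF20 and −1.23 (SE 0.43) in HF75, with limma adjusted p of 0.954, 0.780 and 1.00, and −0.30, −0.72 and −0.81 without LFC week 3 and HFC week 12.

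Hist1h1t stood at −7.57, −5.63, −5.74, 1.93, −4.82 and −2.07 in HFC, at −4.69, −5.73, −4.0, −6.54, −7.25 and −6.24 in HF5, at −4.71, −7.25, −8.17, −7.05, −7.58 and −7.50 in HF20, and at −4.82, −8.27, −7.38, −6.00, −5.29 and −6.94 in HF75. HFC week 12 lay more than 3 log2 units above the rest of these values, and all groups overlapped. It was well above background on 6 of 10 HFC, 1 HF5, 2 HF20 and 3 HF75 arrays. The differences were −1.76 (SE 1.12), −3.06 (SE 1.12) and −2.47 (SE 1.12), with adjusted p of 0.954, 0.780 and 1.00. Without the 2 arrays they were −0.47, −1.77 and −1.18.

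Hist1h1d, the H1.3 linker histone, stood at −3.86, −1.28, −0.71, −1.89, −3.56 and −3.08 in HFC, at −4.15, −3.84, −2.67, −4.22, −3.71 and −5.45 in HF20 and at −3.77, −3.33, −2.59, −5.63, −4.28 and −5.15 in HF75. The groups overlapped, and differences were −1.61 (SE 0.73, adjusted p = 0.780) in HF20 and −1.73 (SE 0.73, adjusted p = 1.00) in HF75. The second probe of Hist1h1d gave −0.05 and −0.72 (SE 0.74 each). Hist1h3a stood at −6.56, −2.62, −3.01, −3.84, −2.37 and −4.40 in HFC and at −4.71, −5.08, −3.34, −8.08, −3.82 and −7.91 in HF20, a difference of −1.69 (SE 0.75, adjusted p = 0.780) between overlapping groups.

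By class, all 6 H1 genes lay below HFC in HF20 (median −0.89) and in HF75 (median −0.49), and 4 of 6 lay above it in HF5 (median 0.21). H3 genes lay lower in 6 of 7 cases in HF20 (median −0.88) and in HF75 (median −0.33), and higher in 6 of 7 in HF5 (median 0.47). All 6 H4 genes lay higher in HF5 (median 0.39), 5 of 6 in HF20 (median 0.46) and 4 of 6 in HF75 (median 0.04). H2A genes lay lower in 10 of 13 cases in HF75 (median −0.26), 5 of 13 in HF20 (median 0.16) and 7 of 13 in HF5 (median −0.01). Without week 9, which held the dimmest array, the H4 median in HF5 was −0.00 with 3 of 6 lower, and the all-member median there went from 0.16 to −0.06. The direction of H1 in HF5 then reversed, with 4 of 6 genes lower (median −0.16), and 9 of 13 H2A genes lay lower (median −0.20). In HF75 without week 9, 5 of 6 H4 genes lay lower (median −0.06). Without LFC week 3 and HFC week 12, 35 of 40 members lay lower in HF75 (median −0.21), against 26 of 41 with them (median −0.05). Among these were all 6 H4 genes (median −0.11), all 12 H2A genes (median −0.25), 7 of 9 H2B genes (median −0.17) and 4 of 7 H3 genes (median −0.17). In HF5 3 of 12 H2A genes then lay lower (median 0.08). Over all probes the medians were −0.03 in HF5, −0.07 in HF20 and −0.01 in HF75.

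Between the highest and the lowest dose, 32 of 41 members lay lower in HF75 than in HF5 (median −0.35, all probes 0.01), with all 6 H1 (median −0.81), all 7 H3 (median −0.51) and all 6 H4 genes (median −0.37) among them. 7 of 9 H2B genes lay higher (median 0.15). 1 member had an unadjusted p under 0.05 (5.81% of all probes), Hist2h2be at 0.55 (SE 0.26, adjusted p = 0.853), ahead of Hist1h3h at −1.56 (SE 0.84, adjusted p = 0.867) and Hist1h3a at −1.30 (SE 0.75, adjusted p = 0.876). Without week 9 the all-member median was −0.15 and 28 of 41 lay lower. By class, 4 of 6 H4 genes (median −0.05), 6 of 7 H3 genes (median −0.59) and all 6 H1 genes (median −0.49) were then lower. Within week 9, 36 members were higher in HF5 than in HFC (median 1.44, all probes 0.81). At week 6 the corresponding count was 4 (median −0.65, all probes −0.15).

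**Figure D4:**
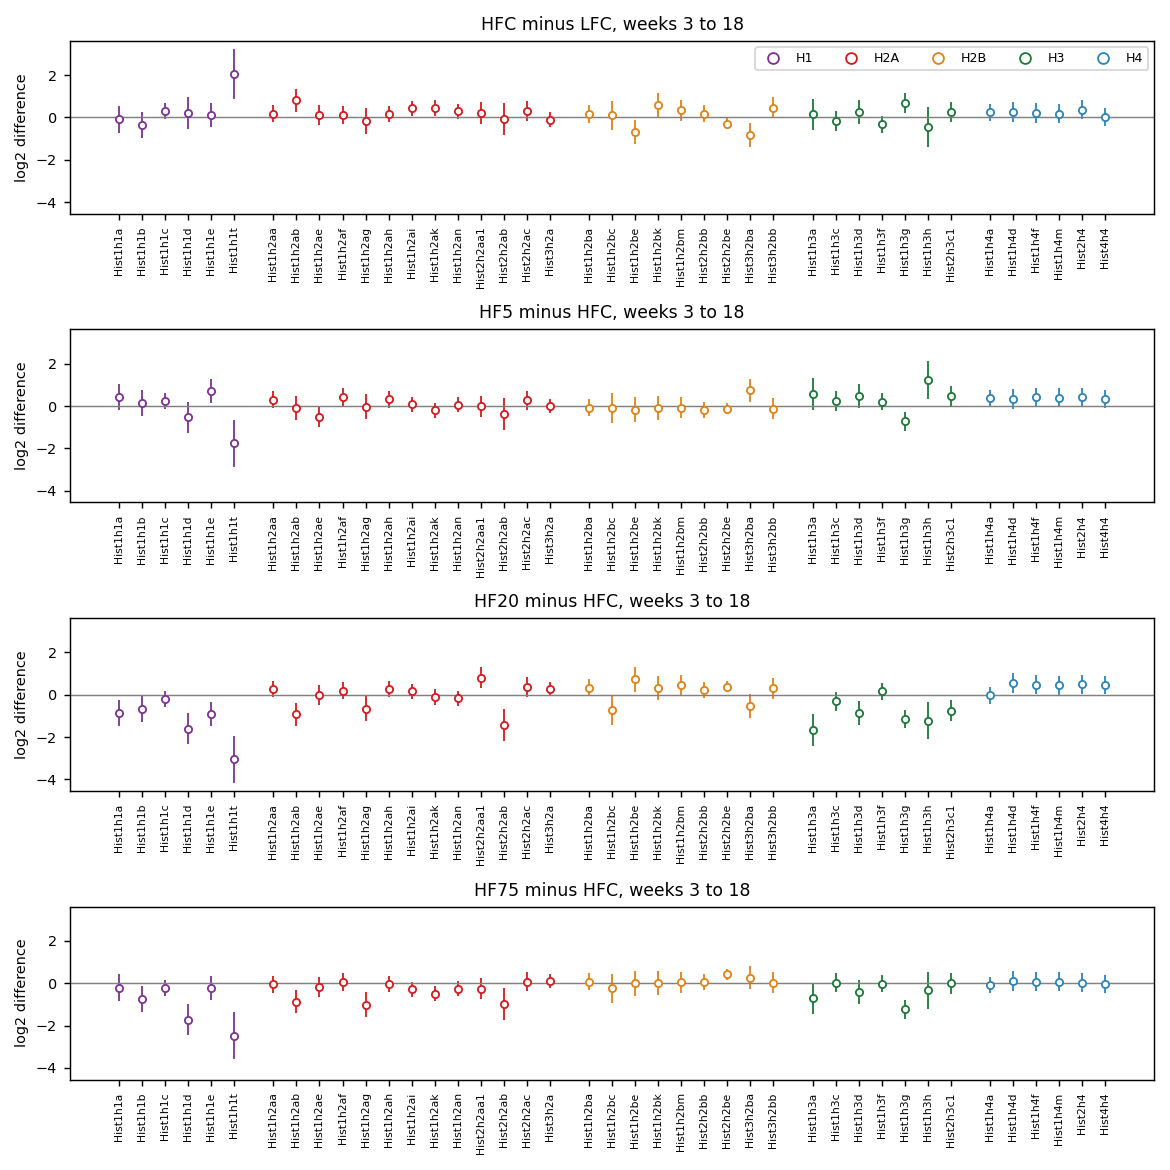
Differences (log2) of each tested clustered histone gene at weeks 3 to 18 for HFC minus LFC and for HF5, HF20 and HF75 minus HFC, grouped by class, with bars of 1 standard error. H1 genes lie below 0 in HF20 and HF75, and no point passed the adjusted threshold.

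On LFC week 3 the histone signals departed from the other LFC arrays in both directions. 9 of the 42 members had only outlier spots there (36.5% of all probes did). Of the 33 with a value, 23 lay below and 10 above the median of the other LFC arrays, with a median deviation of −1.61 and a range of −3.96 to 5.65, against −0.77 over all probes well above background on at least 20 arrays. All 6 H4 genes were at their lowest LFC value (median deviation −1.75), and the medians were −2.15 in H3, −1.33 in H2A and −1.41 in H2B. 18 members were lowest and 8 highest of the LFC arrays on it, while 31.8% of all probes were lowest and 39.6% highest.

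Several genes that were dim elsewhere stood high there. Hist1h2ac was at −0.95 against −7.76 to −5.78 on the other LFC arrays, Hist2h2ab reached −2.45 and Hist1h2be −2.93. Hist1h2bk, which was bright elsewhere (1.46 to 2.94), was at −2.09. On HFC week 12, 28 of 37 members with a value lay below and 9 above the median of the other HFC arrays, with a median deviation of −0.58 (range −1.28 to 7.67) against −0.24 over probes well above background on at least 20 arrays. 12 members were lowest and 4 highest of the HFC arrays on it, and 5 had only outlier spots, while over all probes the shares were 18.3%, 21.7% and 23.0%. On HF5 week 9, 26 members were at their highest HF5 value, with a median deviation of 1.76. The share over all probes was not computed for this array, so the count cannot be read as particular to the histone genes. Signals on it were raised in general: the median difference from HFC week 9 was 0.81 over all probes and 1.44 over the members.

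**Figure D5:**
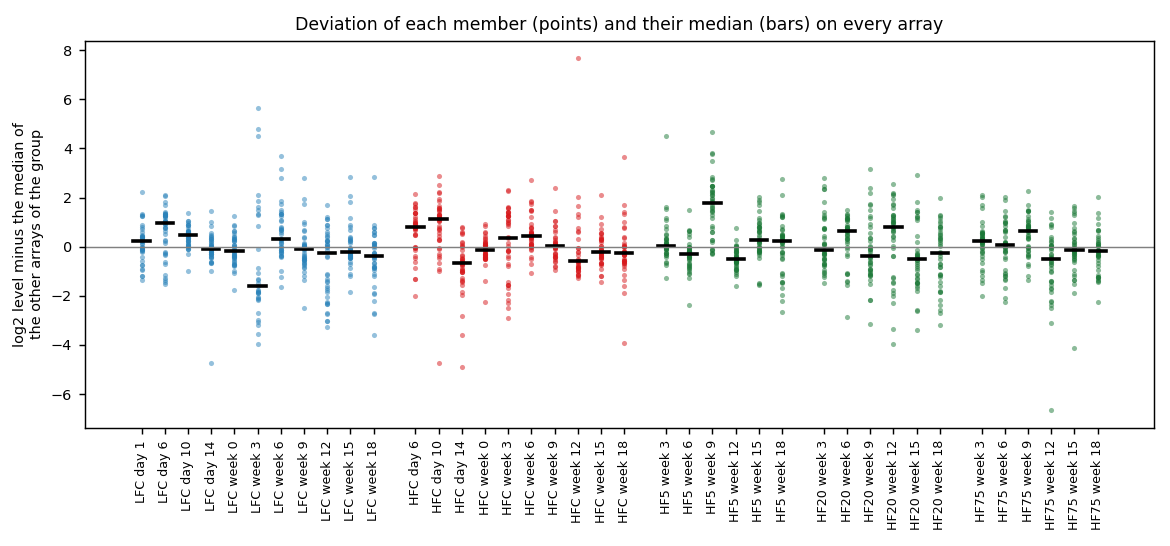
Median deviation (log2) of the clustered histone genes on each of the 39 arrays from the median of the other arrays of its diet, 1 point per member with a bar at their median. LFC week 3 lies lowest, at −1.61, with a wide spread, and HF5 week 9 lies highest, at 1.76.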

How the data were processed

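Epididymal adipose RNA was amplified by T7 linear amplification, labelled with Cy3 and hybridised to one-colour Agilent arrays, 1 per diet and time point (39 arrays). The authors deposited scanner intensity per spot, background-subtracted and detrended but not normalised between arrays; per the file headers a later version of Feature Extraction was used than the 9.1 in the submitters' processing notes. The authors also deposited a table of log2 values with LFC of each time point subtracted, used only as an alternative for diets and doses.

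Spots of a probe were averaged, outlier spots left out, and log2 signal was centred on each array's 75th percentile. A probe was tested if well above background on 10 or more of 20 arrays (HFC against LFC), 6 of 30 (weeks 3 to 18), 5 of 11 (LFC), 4 of 10 (HFC) or 9 of 21 (LFC with HFC). limma 3.58.1 in R 4.3.3 was used with Benjamini-Hochberg adjustment over all probes tested and a threshold of 0.05. Time point was a fixed block between diets. For LFC with HFC, diet was a fixed term and time point a random block (correlation 0.153). Other steps used Python 3.11.15, pandas 2.3.3, numpy 2.4.6 and matplotlib 3.10.9. The fits were checked on simulated data. The number of arrays limits precision, and p values measure the spread between arrays of different time points.

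Members, lists and tests were chosen with earlier results of these data known. Named were members past the threshold (or the 3 with the smallest p), the 2 with the highest median level per class, and the testis histones; of the other gene lists, at most 3 each, apart from counts of 5 or fewer, were named. Gene names are those of the array. Alternatives were normexp background correction (offset 50), quantile and median scaling, outlier spots kept, no filter or every array above background, the mean of a gene's probes, leaving out arrays or time points, array weights, slide and no block. Further ones were the deposited table, a t-test on differences paired by time point, 1 scan period, a linear trend and, chosen after seeing the data, day 14 with week 0 as 1 time point. Protein sequences, and promoters of 6 members, were not used here.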

Additional observations from a re-analysis of the deposited data

Results flagged for a closer look

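Among 162 sets of arrays (27 named members in early LFC, late LFC, HFC, HF5, HF20 and HF75), 12 held an array whose distance from its nearest neighbour was large for the set, where chance gives about 1 in 20. On HF5 week 9, the dimmest array, Hist1h4f was at 5.14 (nearest other HF5 array 3.18), Hist1h4d at 4.79 (2.77) and Hist1h2an at 5.89 (3.83). The Hist1h4d and Hist1h4f probes share 50 bases. On LFC week 3, Hist1h2bm was at −0.73 (nearest late LFC array 1.74), Hist1h2bk at −2.09 (1.63) and Hist1h3f at −1.07 (−2.95). Hist1h2bm and Hist1h2bk share 52 bases. Elsewhere, Hist1h3f was at −4.10 on HF5 week 3 (nearest −3.06), Hist1h1t at −4.71 on HF20 week 3 (−7.05), Hist1h3a at −9.53 on HF75 week 12 (−4.90) and Hist1h1e at −0.09 on LFC week 12 (1.21). On LFC day 6, Hist1h1b was at −0.96 (nearest early LFC array −1.98) and Hist1h2bk at 2.94 (1.58).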

How the results depend on the processing

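Over 16 alternatives and the leaving out of each of 11 time points, 241 of 256 counts of called members stayed within 1.5 times the reported count, and 720 of 744 values of named members kept their direction and side of the threshold. These totals say little about the calls, since the reported count was 0 in every comparison but that of early and late over LFC and HFC. There the count stayed within that range in 10 of 24 alternatives, was lower in 12 and higher in 2. Hist1h2ai kept its call in 19 of the 24 and Hist1h2ak in 13. Between early and late over LFC and HFC (2 members called), the count was 0 with normexp, 1 with quantile scaling, 1 with outlier spots kept, 1 without LFC week 3 and HFC week 12, 10 with array weights (7 lower and 3 higher), 0 within 1 scan period, 5 with a linear trend and 0 to 3 when leaving out 1 time point. Without the time point as a replicate block it was 2, and the block changed no other call of a member. Within HFC it was 8 with array weights, 5 lower and 3 higher (0 reported). The 3 higher in both cases were the H3 genes Hist2h3c1, Hist1h3d and Hist1h3a. With day 14 and week 0 as 1 time point in the block, an alternative chosen after seeing the data, Hist1h2ai (−1.78, adjusted p = 0.00936) and Hist1h2ak (−1.56, 0.0335) were called, with 578 of all probes. Hist1h2ab between HFC and LFC at weeks 3 to 18 went to −0.13 with normexp, and Hist1h3h in HF5 against HFC to −0.044 with outlier spots kept. The late minus early difference of Hist1h2ai was −1.18 (adjusted p = 0.245) with normexp and −2.17 (0.084) with quantile scaling, and that of Hist1h2ak −1.35 (0.195) and −1.45 (0.0401). The causes were not tested. The median of all probes in that comparison moved to 0.22 with normexp, −0.21 with quantile and −0.20 with median scaling, and the H2A median stayed between −1.01 and −0.53.

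The count of all called probes there (667) was 3 with normexp, 247 without the 2 arrays, 6030 with array weights, 1043 without the block, 428 with probe means, 0 within 1 scan period and 189 to 2445 when leaving out a time point. In LFC (149) it was 0 with normexp, within 1 scan period and for the trend, 71 with quantile scaling, 86 with median scaling (57 higher and 29 lower, against 82 and 67), 79 with outlier spots kept and with probes above background on every array, 331 with weights and 46 to 210 when leaving out a time point. In HFC (0) it was 28 with median scaling, 7912 with weights, 1 within 1 scan period and 0 to 745. A slide block was not run within 1 diet, where no slide held 2 arrays. The t-test of the study's methods, made within a time point, could not be run with 1 array per diet and time point. A t-test on differences paired by time point called 0 members after adjustment in each of the diet and dose comparisons. It was not run between early and late. It gave an unadjusted p under 0.05 for 2 members in HF20, 2 in HF75, 1 in HF75 against HF5 and 0 in the other diet and dose comparisons.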
